A study of Saccharomyces cerevisiae with 11 samples.

Results

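The genes described here encode the subunits of the yeast 26S proteasome and RPN4, the transcription factor that activates them. They were taken as a named list of 33 genes: 7 subunits of the alpha ring and 7 of the beta ring, which form the core particle of 14, 10 subunits of the base, 8 of the lid, and RPN4. Each gene was represented by its brightest probe set among those annotated to that gene alone. All 33 were measured, out of 5577 genes tested on the arrays.

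The cells were Saccharomyces cerevisiae strain IMK313, a rim15 deletion mutant of the prototrophic laboratory strain CEN.PK113-7D, grown without oxygen and limited by glucose at pH 5.0 and 30 °C. Retentostat cultures, in which the outflow passes a filter that keeps every cell in the vessel so that growth slows toward zero on a constant trickle of glucose, were sampled on days 2, 9, 16 and 20. There were 2 retentostat cultures, each sampled on all 4 days, which gave 2 arrays a day. The baseline was 3 independent chemostat cultures at a dilution rate of 0.025 per hour. The medium held 50 g/l of glucose in both. All 5 cultures carried the deletion, so every value below is a difference between growth states within the mutant; the wild type is not analysed here. The series asks what loss of Rim15, a protein kinase needed for yeast to enter quiescence when nutrients run out, does under severe calorie restriction.

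The RIM15 probe set gave signals of 0.4 to 13.9 on the 11 arrays, against median signals over all probe sets of 85.3 to 122. The deposited signals had a common trimmed mean (spread 0.0311%), yet the median gene was higher in retentostats by 0.11, 0.25, 0.35 and 0.36 on the log2 scale on days 2, 9, 16 and 20. Medians of gene groups on those days are to be read against these values. On the culture 2 arrays of days 9, 16 and 20 the 3′ probe set of ACT1 was 27.0, 217 and 31.8 times as bright as its 5′ probe set, a sign of RNA quality, against 0.966 to 2.03 times on the other 8 arrays; this is called the skewed ACT1 ratio below. Results for those days are given with and without these 3 arrays, and without them each of those days has 1 array, whose spread is taken to be that of the other groups. In RNA from whole cultures, fewer cells expressing a gene and less of its RNA per cell cannot be told apart.

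The 26S proteasome destroys proteins that carry ubiquitin chains. Its core particle is a barrel of stacked rings, with the cutting sites inside the beta rings and the gate in the alpha rings. The regulatory particle sits on the end of the barrel: its base holds a ring of ATPases that unfold the substrate, with scaffold subunits and ubiquitin receptors, and its lid removes the ubiquitin chain. Rpn4 binds a shared element in the promoters of most of these genes and is itself destroyed within minutes by the proteasome, which makes a feedback loop between proteasome activity and proteasome synthesis.

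RPN4 (YDL020C) rose in the retentostats on days 9, 16 and 20. Its signals were 454, 456 and 388 in the chemostats, then 757 and 1122 at day 2, 1188 and 1367 at day 9, 1160.3 and 1841 at day 16 and 1395.5 and 1568 at day 20. Both arrays of every retentostat day lay above all 3 chemostat arrays, and the lowest retentostat value was that of culture 1 on day 2. The group means were 433 ± 38.8 (SD, n = 3) for the chemostats and 940 ± 258, 1278 ± 127, 1501 ± 481 and 1482 ± 122 on days 2, 9, 16 and 20 (SD, n = 2 each). Against the chemostats, RPN4 rose 2.95-fold on day 9 (log2 difference 1.56 ± 0.27 SE, limma adjusted p = 0.00755), 3.39-fold on day 16 (1.76 ± 0.27, adjusted p = 0.00365) and 3.43-fold on day 20 (1.78 ± 0.27, adjusted p = 0.00433). The adjusted p is that of limma's moderated test with Benjamini-Hochberg adjustment over all 5577 genes, and a gene is said to have risen or fallen where it was below 0.05.

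On day 2 the difference was 2.14-fold (1.10 ± 0.27) and did not pass the test (adjusted p = 0.305). Day 20 exceeded day 2 by 0.68 on the log2 scale (adjusted p = 0.359) and day 9 by 0.22 (adjusted p = 0.908), neither past the threshold. Without the 3 arrays with the skewed ACT1 ratio the log2 differences from the chemostats were 1.46, 1.43 and 1.69 on days 9, 16 and 20 (adjusted p = 0.0372, 0.0422 and 0.0443). The day 20 call was lost without the culture 2 array of that day (adjusted p = 0.0721). In the F test over the 5 sampling points RPN4 had an adjusted p of 0.00994, which became 0.0699 without the 3 arrays, and it also lost this call when any 1 of the 3 chemostat arrays was left out.

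**Figure D1:**
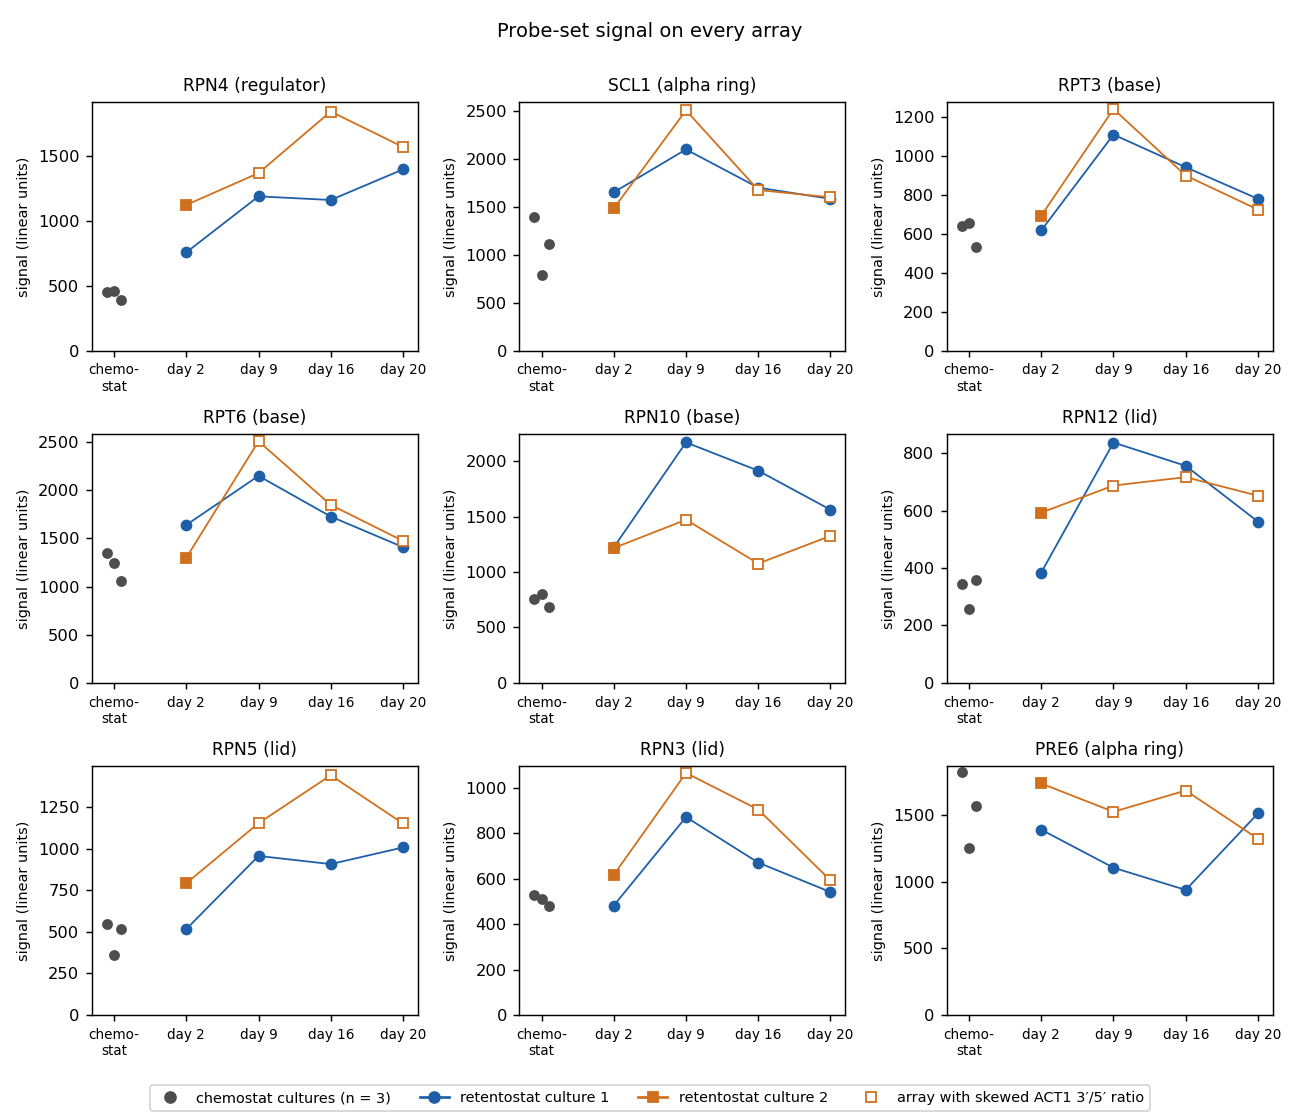
Probe-set signal (linear units, axes from 0) on every array for RPN4, 7 subunit genes that rose on day 9 and PRE6, which did not. Gray points are the 3 chemostat cultures, lines join the 4 days of each retentostat culture, and open squares are the 3 arrays with the skewed ACT1 ratio. RPN4, SCL1, RPN10 and RPN12 lay above the chemostats on all 8 retentostat arrays. Of the 7 subunit genes, all but RPN5 had their highest means on day 9.

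The 32 subunit genes had their highest median on day 9. Their median log2 difference from the chemostats was 0.18, 0.59, 0.39 and 0.28 on days 2, 9, 16 and 20, beside 0.11, 0.25, 0.35 and 0.36 for all genes tested. The subunits thus stood above the median gene by most on day 9, and below it on day 20. Single subunits ranged over −0.21 to 0.73 at day 2, over −0.40 to 1.26 at day 9, over −0.62 to 1.29 at day 16 and over −0.31 to 1.20 at day 20.

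Of the 33 genes, 10 rose on day 9 (30.3%), beside 11.4% of all genes tested, and none fell, beside 3.68%. They were SCL1 of the alpha ring, RPT3, RPT6 and RPN10 of the base, RPN3, RPN5, RPN6, RPN11 and RPN12 of the lid, and RPN4. On day 16, 4 rose (12.1%), RPN10, RPN5, RPN12 and RPN4, beside 16.6% of all genes, and on day 20, 3 rose (9.09%), RPN5, RPN12 and RPN4, beside 10.5%. The counts on days 16 and 20 were thus near the background, and no member fell on either day (all genes 4.32% and 3.01%). On day 2 none passed in either direction, beside 0.0179% of all genes higher and 0% lower; unadjusted p-values under 0.05 were found for RPN10 and RPN4, 2 of the 33, and for 478 of all genes. In the F test over the 5 points 2 of 33 passed, RPN4 and RPN12, beside 11.4% of all genes.

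Without the 3 arrays with the skewed ACT1 ratio, 6 of the 33 rose on day 9 (all genes 10.5%): RPN4, RPN10, RPT3, RPN6, RPN11 and PRE4. On day 16, 3 rose (RPN4, RPN10 and PRE4; all genes 9.22%) and RPT4 fell (all genes 3.48%), and on day 20, 2 rose (RPN4 and RPN10; all genes 3.68%). The day 9 count also leaned on single arrays: it was 3, 3 and 2 without chemostat array 1, 2 and 3, 6 without culture 1 of day 9 and 3 without culture 2 of day 9.

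Among the single genes, RPN4 kept its day 9 and day 16 calls whichever array was left out (adjusted p of at most 0.0388 and 0.0259). RPN12 lost its day 9 call without culture 1 of day 9 alone (adjusted p = 0.0561) and its day 16 call without culture 2 of day 16 alone (0.0597). The day 9 calls of RPN10, RPT6, RPN3, RPN5, RPN6 and RPN11 were each lost without any 1 of the 3 chemostat arrays, that of SCL1 without array 2 or 3, and that of RPT3 without array 1 or 3. Culture 2 of day 9 also decided SCL1, RPT3, RPT6 and RPN3, culture 1 of day 9 decided RPN10, and either of them decided RPN5, RPN6 and RPN11, as did either day 20 array and, for RPN6, either day 2 array. The highest adjusted p that leaving out 1 array gave on day 9 was 0.0715 for RPT3, 0.0853 for RPT6, 0.0858 for RPN10, 0.0907 for RPN11, 0.099 for SCL1, 0.11 for RPN3, 0.118 for RPN6 and 0.131 for RPN5. The day 20 calls of RPN12 and RPN5 were lost without any 1 chemostat array or either day 20 array (adjusted p of up to 0.296 and 0.245). On day 16 that of RPN5 was lost without chemostat array 2 or culture 2 of day 16 (up to 0.122), and that of RPN10 without any 1 chemostat array, culture 1 of day 16 or any array of days 2 and 20 (up to 0.169).

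**Figure D2:**
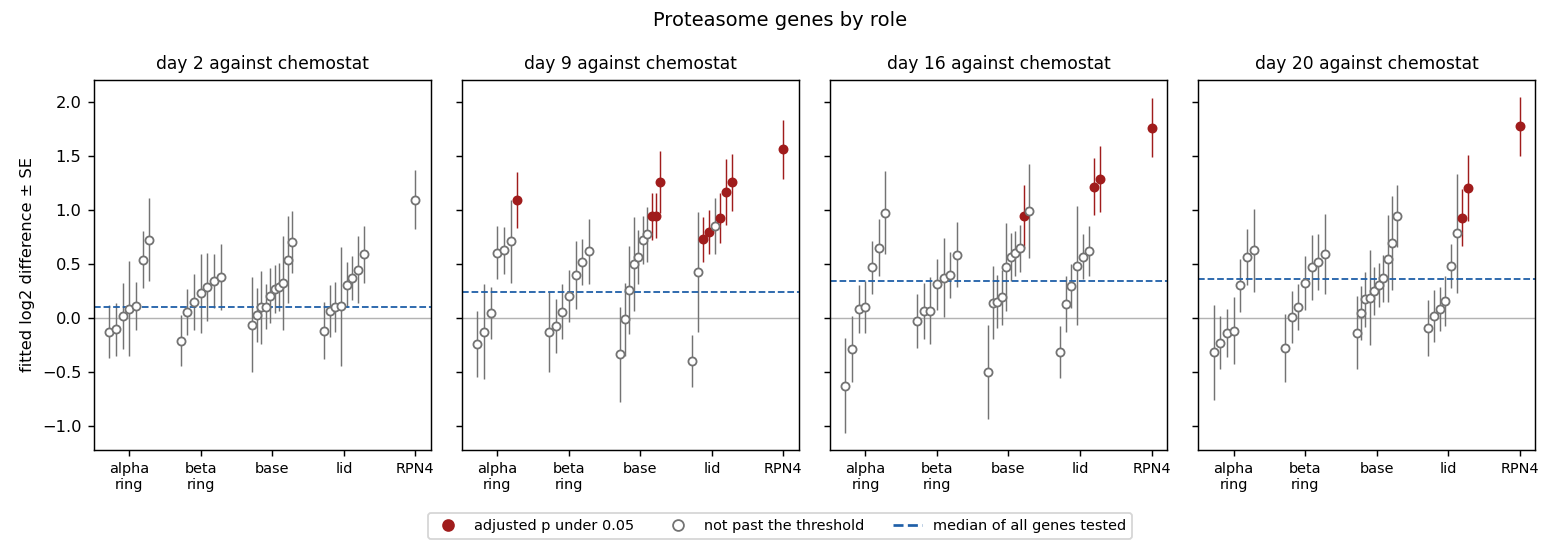
Fitted log2 difference of each gene from the chemostats (± SE), by role and day, with the median of all 5577 genes as a dashed line. Filled points passed the test: 10 on day 9, among them 5 of the 8 lid genes and 1 of the 14 core genes, and 4 and 3 on days 16 and 20, with RPN4 highest on each of the 3 days.

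The height of these values depended on how arrays were scaled. Setting every array to the same median moved the median of all genes to −0.03, −0.04, −0.04 and −0.07 on days 2, 9, 16 and 20. The subunit median was then 0.05, 0.30, −0.01 and −0.15, so that it kept its sign on days 2 and 9 and changed it on days 16 and 20. Relative to the median of all genes, the subunits were higher on day 9 under the deposited scaling, the median scaling and quantile normalization, under which the subunit median was 0.43 and that of all genes 0.03. With median scaling 2 members rose on day 9 (6.06%), beside 5.27% of all genes, so that this count was near the background. With quantile normalization 7 rose (21.2%), beside 5.88% of all genes.

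Day 9 was the most frequent high point. The mean log2 signal was highest on day 9 for 17 of the 32 subunits (53.1%), beside 19.3% of all genes, and on the chemostats for none, beside 16.5%. The 17 were 6 of 14 core genes (SCL1, PRE9, PUP2, PRE3, PRE1 and PRE4), 6 of 10 base genes (RPT2, RPT3, RPT6, RPN1, RPN2 and RPN10) and 5 of 8 lid genes (RPN3, RPN6, RPN9, RPN11 and RPN12). The number was 16 under median scaling (all genes 20.2%) and under quantile normalization (all genes 20.9%), and 17 without the 3 arrays with the skewed ACT1 ratio (all genes 26.2%). Those highest on the chemostats numbered 7 of 32 under median scaling (21.9%, all genes 32.02%), 3 of 32 under quantile normalization (all genes 26.8%) and 0 without the 3 arrays (all genes 16.1%). Of the others, 4 were highest on day 2 (PRE8, PRE6, PRE2 and RPN7), 6 on day 16 (PRE5, PRE10, PUP3, RPT1, RPN13 and RPN5) and 5 on day 20 (PUP1, PRE7, RPT4, RPT5 and RPN8). RPN4 was highest on day 16 by its mean signal, and highest on day 20 by its mean log2 signal.

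Between day 20 and day 9, a comparison added after the data had been seen, the median of the 32 subunits was −0.26, beside 0.08 for all genes. The median was −0.19 for the core, −0.33 for the base and −0.29 for the lid. No gene on the arrays passed the adjusted threshold in this comparison, members included (0% of all genes higher, 0% lower), and unadjusted p-values under 0.05 were found for 6 members and 419 of all genes. The 6 were RPN9 (−0.94), PUP2 (−0.77), RPN3 (−0.77), RPN11 (−0.71), RPT6 (−0.69) and RPT3 (−0.64), with adjusted p of 0.542 to 0.575. Without the 3 arrays with the skewed ACT1 ratio they had −0.88, −0.88, −0.69, −0.85, −0.61 and −0.51, in that order. Since the subunit median was highest on day 9, lower values on day 20 are in part built into this comparison. Over all 33 members, both day 20 signals lay below both day 9 signals for 14, among them these 6, and above them for 4, beside 13.4% and 20.8% of all genes. Between day 20 and day 2 the subunit median was 0.04, beside 0.22 for all genes, and none of the 33 passed (0.323% of all genes higher, 0.269% lower; 0.0538% higher without the 3 arrays with the skewed ACT1 ratio); RPN4 alone had an unadjusted p under 0.05, as had 758 of all genes.

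**Figure D3:**
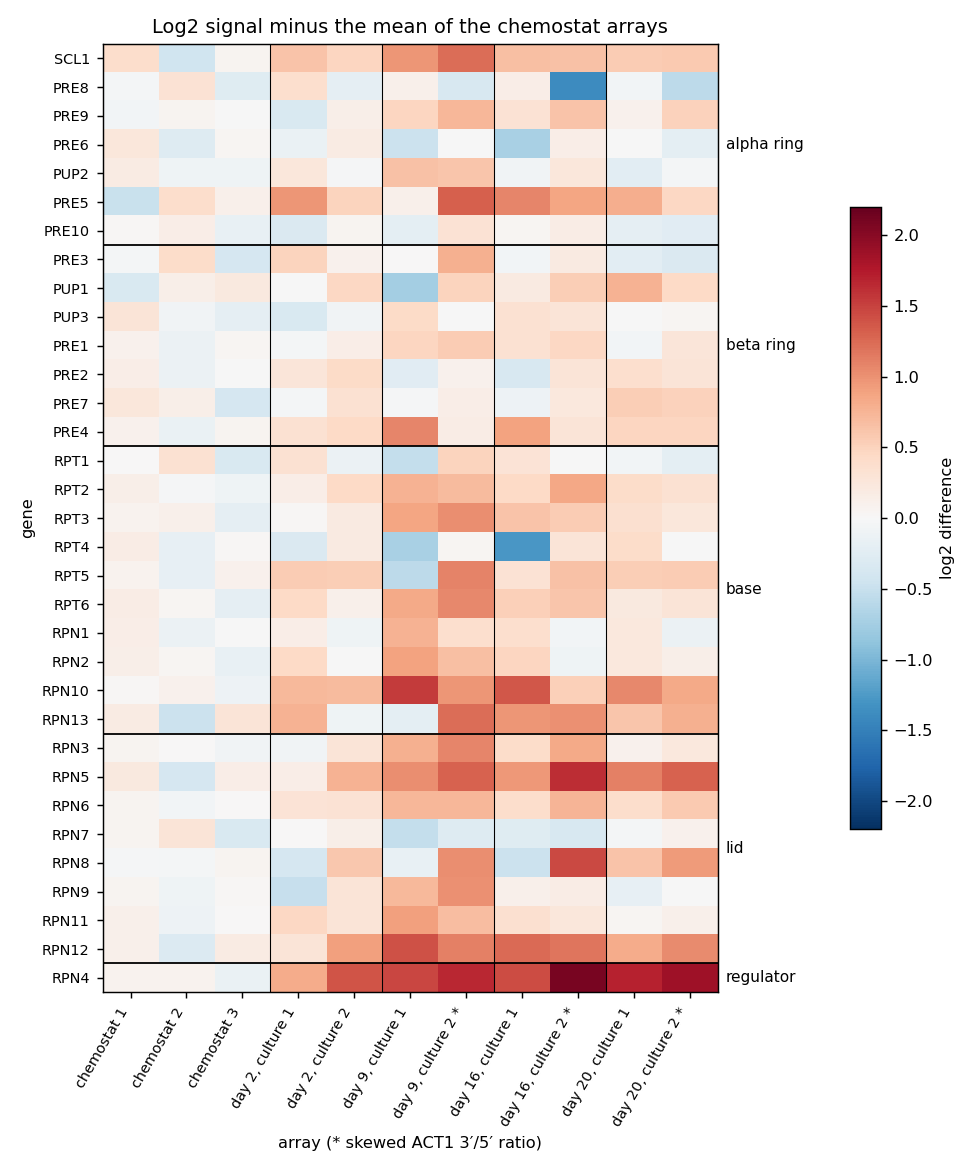
Log2 signal of each of the 33 genes on each of the 11 arrays, minus the mean of that gene's chemostat arrays (red higher, blue lower), grouped by role; asterisks mark the 3 arrays with the skewed ACT1 ratio. The base and lid rows have their highest medians in the day 9 columns (0.77 and 0.84 for the base), and the RPN4 row is red on all 8 retentostat arrays, with a highest value of 2.09 on the culture 2 array of day 16.

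Among the 14 core particle genes the median log2 difference was 0.13, 0.30, 0.21 and 0.20 on days 2, 9, 16 and 20, and 1 gene rose, on day 9. The alpha ring had medians of 0.09, 0.61, 0.10 and −0.11 and the beta ring of 0.23, 0.21, 0.31 and 0.32. All genes tested had 0.11, 0.25, 0.35 and 0.36, so that the beta ring median was below theirs on days 9, 16 and 20. The alpha ring's day 9 median was 0.12 in culture 1, below the 0.17 of all genes on that array, and 0.61 in culture 2, on an array with the skewed ACT1 ratio; without the 3 such arrays the fitted day 9 median was 0.12 for the alpha ring and 0.02 for the beta ring (all genes 0.17).

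SCL1 (YGL011C), the alpha 1 subunit, was the core gene that rose. Its signals were 1401.5, 793.5 and 1119.5 in the chemostats, then 1654 and 1486 at day 2, 2102 and 2509.7 at day 9, 1703 and 1678 at day 16 and 1585 and 1602 at day 20. All 8 retentostat arrays lay above the 3 chemostat arrays, and both day 9 arrays lay above all others. It rose 2.14-fold on day 9 (log2 difference 1.09 ± 0.26, adjusted p = 0.0233), a call that was not kept without the 3 arrays with the skewed ACT1 ratio (0.97, adjusted p = 0.125).

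PUP2 (YGR253C) and PRE9 (YGR135W), which encode alpha 5 and alpha 3, also had their highest means on day 9, and did not pass the test. PUP2 had 789.6 and 767 on day 9, against 570.5, 472.5 and 474 on the chemostat arrays (log2 difference 0.63, adjusted p = 0.0852), and 429 and 489 on day 20. Its day 9 arrays lay above the chemostats, and 1 of its 2 day 20 arrays lay within their range and 1 below it. PRE9 had 729 and 872 on day 9, against 502, 549 and 521.5 in the chemostats (0.61, adjusted p = 0.127), and its arrays of days 9, 16 and 20 all lay above the chemostats. PRE6 (YOL038W), alpha 4, had 1821, 1249.9 and 1570.4 in the chemostats, then 1389.9 and 1736 at day 2, 1105 and 1524 at day 9, 938 and 1684 at day 16 and 1512 and 1322 at day 20, with groups that overlapped on every day, and log2 differences of 0.02, −0.24, −0.28 and −0.11. PRE10 (YOR362C), alpha 7, was the 1 member whose day 20 arrays both lay below the chemostats, at 1128 and 1083, against 1310.0, 1428 and 1154 (−0.23, adjusted p = 0.549). PRE5 (YMR314W), alpha 6, had log2 differences of 0.73, 0.71, 0.98 and 0.63 on the 4 days, none past the threshold. PRE8 (YML092C), alpha 2, had 1460.3 and 502 on day 16, against 1272, 1647 and 1093 in the chemostats, with culture 2 below all of them (−0.62, adjusted p = 0.324).

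The beta ring holds the 3 cutting subunits, and none of them passed on any day. PRE3 (YJL001W, caspase-like activity) had 916, 1255 and 736 in the chemostats, then 1322 and 1007 at day 2, 957 and 1627 at day 9, 906 and 1090.0 at day 16 and 808 and 755 at day 20. In this brightest probe set each day overlapped the chemostats, and culture 2 of day 9 lay above all other arrays. Both day 20 arrays lay below every array of days 2, 9 and 16. The other PRE3 probe sets, described below, lay under the chemostats on days 16 and 20. PUP1 (YOR157C, trypsin-like activity) had 615, 849.8 and 905 in the chemostats, then 779 and 1073 at day 2 and 465 and 1092 at day 9. It had 898 and 1140 at day 16 and 1318.5 and 1053 at day 20. On day 9 culture 1 lay below all chemostat arrays and culture 2 above them (log2 difference −0.13, adjusted p = 0.858). Both PUP1 arrays of day 20 lay above the chemostats (log2 difference 0.60, adjusted p = 0.291). PRE2 (YPR103W, chymotrypsin-like activity) had 1288, 1074 and 1155 in the chemostats, then 1406 and 1563 at day 2, 989 and 1247 at day 9, 918 and 1429.9 at day 16 and 1511 and 1415 at day 20. Its day 2 and day 20 arrays lay above the chemostats, and its culture 1 arrays of days 9 and 16 lay below them; the log2 differences were 0.34, −0.07, −0.03 and 0.32.

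PRE4 (YFR050C), the beta 7 subunit, had 1288.5, 1081 and 1246 in the chemostats, then 1509.7 and 1625 at day 2, 2529 and 1346 at day 9, 2227 and 1463 at day 16 and 1673 and 1659 at day 20. All 8 retentostat arrays lay above the chemostats, and culture 1 was far above culture 2 on days 9 and 16. Its log2 difference was 0.62 on day 9 (adjusted p = 0.197) and 0.59 on day 16 (adjusted p = 0.184); without the 3 arrays with the skewed ACT1 ratio, which leaves culture 1, it was 1.07 (adjusted p = 0.0308) and 0.89 (adjusted p = 0.0423). The other structural beta subunits, PUP3, PRE1 and PRE7, had log2 differences between −0.21 and 0.52 over the 4 days, with adjusted p of 0.13 or higher.

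The 10 base genes had a median log2 difference of 0.24, 0.65, 0.52 and 0.28 on days 2, 9, 16 and 20, beside 0.11, 0.25, 0.35 and 0.36 for all genes. On day 9, 3 of 10 rose, beside 11.4% of all genes, and none of the 10 did under median scaling. The 6 ATPase genes RPT1 to RPT6 had medians of 0.19, 0.49, 0.52 and 0.28. Their day 9 median was 0.12 in culture 1, below the 0.17 of all genes on that array, and 0.86 in culture 2. Without the 3 arrays with the skewed ACT1 ratio the fitted day 9 median was 0.12 for the ATPase genes and 0.77 for the base as a whole.

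RPT3 (YDR394W) and RPT6 (YGL048C) were the ATPase genes that rose. RPT3 had 644, 656 and 533 in the chemostats, then 619 and 694 at day 2, 1111 and 1243 at day 9, 944 and 901 at day 16 and 781 and 726 at day 20. Its day 9 arrays were the highest and its day 20 arrays lay just above the chemostats. RPT3 rose 1.93-fold on day 9 (0.95 ± 0.21, adjusted p = 0.0165, and 0.0487 without the 3 arrays). RPT6 had 1344, 1243 and 1053.5 in the chemostats, then 1639 and 1297.5 at day 2, 2148 and 2508 at day 9, 1726 and 1847 at day 16 and 1409 and 1473 at day 20, again with both day 9 arrays above all others and all day 20 arrays above the chemostats. It rose 1.92-fold on day 9 (0.94 ± 0.22, adjusted p = 0.0214, and 0.0733 without the 3 arrays). RPT2 (YDL007W), the ATPase that opens the gate of the core particle, had 559 and 533 on day 9, against 360.4, 323 and 309.6 in the chemostats, without overlap, and missed the threshold (0.73, adjusted p = 0.0534).

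The other ATPase genes differed between the cultures. RPT1 (YKL145W) had 918 and 1858 on day 9, against 1318, 1655 and 1044 in the chemostats. The culture 1 value lay below all chemostat arrays and the culture 2 value above them (−0.01, adjusted p = 0.996). RPT4 (YOR259C) had 226 and 665 on day 16, against 611, 483 and 554 in the chemostats (−0.50, adjusted p = 0.441). The lower day 16 value is from culture 1, so that without the 3 arrays with the skewed ACT1 ratio the log2 difference was −1.28 (adjusted p = 0.0495), the 1 call of a lower member.

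RPN10 (YHR200W), a ubiquitin receptor, had the largest fitted day 9 difference of the base. Its signals were 758, 798 and 688 in the chemostats, then 1222.5 and 1216 at day 2, 2169 and 1472 at day 9, 1914 and 1076 at day 16 and 1562 and 1326 at day 20. All 8 retentostat arrays lay above the 3 chemostat arrays, and on days 9 and 16 culture 1 was the higher. It rose 2.39-fold on day 9 (1.26 ± 0.29, adjusted p = 0.020) and 1.92-fold on day 16 (0.94 ± 0.29, adjusted p = 0.0461), and was 1.93-fold on day 20 (0.95 ± 0.29, adjusted p = 0.0577). Without the 3 arrays with the skewed ACT1 ratio it passed on all 3 days (1.54, 1.36 and 1.06, adjusted p = 0.0231, 0.0218 and 0.0385), and was then the 1 member past the threshold of the F test over the 5 points (adjusted p = 0.0424, all genes 3.14%).

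RPN13 (YLR421C), the other receptor in the list, had 895, 567 and 958 in the chemostats, then 1329 and 732 at day 2, 678 and 1833.5 at day 9, 1547 and 1577 at day 16 and 1200.5 and 1355 at day 20. Its chemostat arrays spread widely, both arrays of days 16 and 20 lay above them, and no day passed (largest log2 difference 0.99 on day 16, adjusted p = 0.128). The scaffolds RPN2 (YIL075C) and RPN1 (YHR027C) were highest on day 9, at 1312.5 and 1129.8 for RPN2, against 776, 733 and 633 in the chemostats, and 1044 and 788 for RPN1, against 678, 557 and 605. Neither overlapped the chemostats on that day, and neither passed (0.78, adjusted p = 0.0678, and 0.57, adjusted p = 0.154).

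The 8 lid genes had a median of 0.21, 0.82, 0.53 and 0.32 on days 2, 9, 16 and 20, beside 0.11, 0.25, 0.35 and 0.36 for all genes. On day 9, 5 of the 8 rose, beside 11.4% of all genes, and 1 of the 8 did so under median scaling. Under median scaling the lid median of day 9 was 0.54, that of the base 0.36 and that of the core 0.02, and without the 3 arrays with the skewed ACT1 ratio these medians were 0.76, 0.77 and 0.12. The order of base and lid was thus not fixed, while the core was lowest in each. Whether subcomplexes differ was not tested, since genes are not replicates. The spread between the chemostat arrays also differed, with a median log2 SD of 0.096 for the lid, 0.16 for the base and 0.26 for the core (all genes 0.21). The same shift is harder to call where the spread is larger, so the counts of calls are not directly comparable.

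RPN12 (YFR052W), a structural lid subunit, was the subunit that also passed the F test over the 5 points (adjusted p = 0.0400, and 0.131 without the 3 arrays with the skewed ACT1 ratio). It had 344, 259 and 358 in the chemostats, then 384 and 593 at day 2, 837 and 687.5 at day 9, 756 and 717 at day 16 and 562 and 652 at day 20. All 8 retentostat arrays lay above the chemostats. RPN12 rose 2.39-fold on day 9 (1.26 ± 0.26, adjusted p = 0.0139), 2.32-fold on day 16 (1.21 ± 0.26, adjusted p = 0.0133) and 1.91-fold on day 20 (0.93 ± 0.26, adjusted p = 0.0457). Without the 3 arrays the differences were 1.40, 1.25 and 0.82, with adjusted p of 0.0564, 0.0731 and 0.176. The F call was also lost without any 1 chemostat array, without culture 1 of day 9, without culture 2 of day 16 and without either array of day 20.

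RPN5 (YDL147W), another structural lid subunit, rose on the same 3 days. Its signals were 546, 363 and 516 in the chemostats, then 516 and 792 at day 2, 956 and 1152.5 at day 9, 907 and 1441 at day 16 and 1007 and 1151 at day 20. All 6 arrays of days 9, 16 and 20 lay above the chemostats, and on every retentostat day culture 2 was the higher. The rise was 2.24-fold on day 9 (1.17 ± 0.31, adjusted p = 0.0326), 2.44-fold on day 16 (1.29 ± 0.31, adjusted p = 0.0187) and 2.30-fold on day 20 (1.20 ± 0.31, adjusted p = 0.0338), and no day passed without the 3 arrays (1.03, 0.96 and 1.11, adjusted p = 0.121 to 0.143).

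RPN3 (YER021W), another structural lid subunit, had 529, 510.3 and 481.5 in the chemostats, then 482 and 617 at day 2, 872 and 1067 at day 9, 672 and 905 at day 16 and 542 and 593 at day 20. It was high on days 9 and 16 and close to the chemostats by day 20. RPN3 rose 1.90-fold on day 9 (0.93 ± 0.23, adjusted p = 0.0265, and 0.0607 without the 3 arrays). RPN11 (YFR004W), the deubiquitinase that cuts the ubiquitin chain from the substrate, had 1268, 1090.3 and 1183 in the chemostats, then 1616 and 1442 at day 2, 2204 and 1897 at day 9, 1504 and 1399.5 at day 16 and 1221 and 1275.5 at day 20. Its 2 day 9 values were its highest, and on day 20 it was within 0.08 of the chemostats on the log2 scale. RPN11 rose by 0.80 ± 0.20 on that scale on day 9 (adjusted p = 0.0283, and 0.0368 without the 3 arrays). RPN6 (YDL097C), which clamps the lid to the core particle, had 1528.5 and 1519.8 on day 9, against 952, 877.5 and 927 in the chemostats, with no overlap. It rose 1.66-fold (0.73 ± 0.21, adjusted p = 0.0426, and 0.0376 without the 3 arrays).

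The remaining lid genes did not pass on any day. RPN9 (YDR427W) had 621, 556 and 604.5 in the chemostats, then 418 and 719 at day 2, 969.9 and 1185 at day 9, 639 and 663 at day 16 and 526 and 592 at day 20, a day 9 high with no overlap of the chemostats (0.85, adjusted p = 0.0555) and log2 differences of 0.13 and −0.09 on days 16 and 20. RPN7 (YPR108W) had 496 and 586 on day 9, against 737, 867 and 560.4 in the chemostats, the lowest fitted day 9 difference of all members (−0.40, adjusted p = 0.297). RPN8 (YOR261C), the partner of Rpn11, had 539, 536 and 573.5 in the chemostats, then 427 and 824 at day 2, 489 and 1119 at day 9, 394 and 1506 at day 16 and 853 and 1049.9 at day 20. Its culture 2 was above the chemostats on all 4 days and its culture 1 on day 20 alone, and its SE of 0.55 was the largest of the members.

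**Figure D4:**
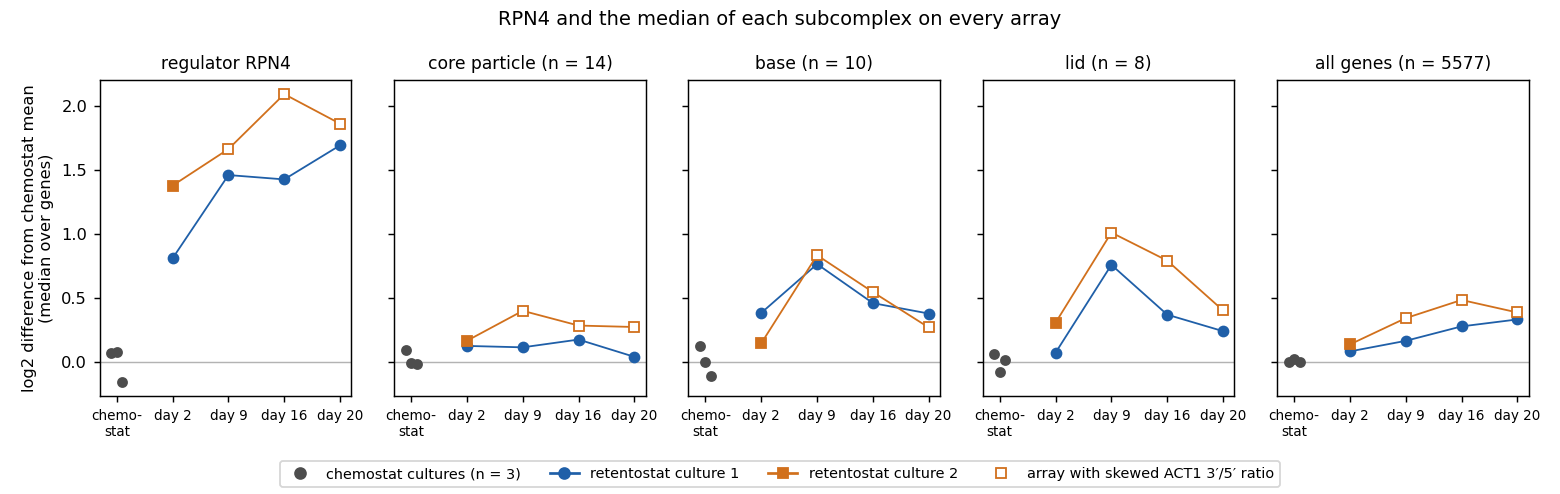
Log2 difference from the chemostat mean on every array for RPN4, and the median over the genes of the core particle, the base, the lid and all genes tested. Lid medians reach 0.76 and 1.01 on the day 9 arrays and are 0.24 and 0.40 on day 20, while RPN4 is at 1.46 and 1.66 on day 9 and 1.69 and 1.86 on day 20.

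Set side by side by array, the base and lid medians were lower on days 16 and 20 than on day 9 in both cultures, while RPN4 was at 1.43 or higher on every array of those 3 days. In culture 1 the base median was 0.38, 0.77, 0.46 and 0.38 and the lid median 0.07, 0.76, 0.37 and 0.24 on days 2, 9, 16 and 20, while RPN4 was at 0.81, 1.46, 1.43 and 1.69. In culture 2 the base median was 0.15, 0.84, 0.55 and 0.27 and the lid median 0.31, 1.01, 0.79 and 0.40, while RPN4 was at 1.38, 1.66, 2.09 and 1.86. The core median was 0.13, 0.12, 0.18 and 0.04 in culture 1 and 0.17, 0.40, 0.29 and 0.27 in culture 2, so that a day 9 high of the core was seen in culture 2 alone, on an array with the skewed ACT1 ratio. These are log2 differences from the same 3 chemostat arrays, and whether RPN4 and the subunits differ in course was not tested.

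Over days 9, 16 and 20, 12 of the 33 genes (36.4%) had all 6 arrays above all 3 chemostat arrays, beside 24.5% of all genes tested, and none had all 6 below, beside 7.67%. They were SCL1, PRE9 and PRE4 of the core, RPT2, RPT3, RPT6 and RPN10 of the base, RPN3, RPN5, RPN6 and RPN12 of the lid, and RPN4. Day by day, both arrays lay above the chemostats for 11, 18, 19 and 19 of the 33 members on days 2, 9, 16 and 20, beside 23.9%, 33.2%, 40.6% and 49.8% of all genes. The members' count was nearly level from day 9 on, while the share of all genes was larger on each later day.

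Some members differed between the 2 retentostat cultures on the days when the culture 2 arrays had the skewed ACT1 ratio. Culture 2 minus culture 1 exceeded 1 on the log2 scale in size for 6 of 33 members on day 9 (all genes 24.1%), namely RPT5 (1.66), RPN13 (1.44), PUP1 (1.23), PRE5 (1.19), RPN8 (1.19) and RPT1 (1.02). On day 16 it did so for 3 of 33 (all genes 26.8%), RPN8 (1.94), RPT4 (1.56) and PRE8 (−1.54), and on days 2 and 20 for none (7.10% and 4.29%). None of these 8 genes passed on any day with all arrays in the fit. The members' shares, 18.2% on day 9 and 9.09% on day 16, were smaller than those of all genes.

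For 2 members the arrays carry several probe sets. These differed on the arrays with the skewed ACT1 ratio, and for PRE3 also on culture 1 arrays. The brightest of the 4 probe sets of RPT5 (YOR117W), an ATPase subunit, gave 463.5, 387 and 470.3 in the chemostats, then 643.5 and 635 at day 2, 296 and 937 at day 9, 545 and 685 at day 16 and 642 and 645 at day 20. It was high on the culture 2 array of day 9 and low on the culture 1 array. The next in brightness gave 181, 249.8 and 537.0 on the chemostats and 17.3, 16.5 and 44.0 on the culture 2 arrays of days 9, 16 and 20, against 270.5, 297 and 413 in culture 1 on those days. The third gave 0.7, 9.8 and 7.1 on the same 3 culture 2 arrays, against 258, 224 and 149 in culture 1. The second and the third probe sets thus nearly lost their signal on the arrays with the skewed ACT1 ratio while the brightest one did not. The fourth, the faintest, gave 7.5, 13.3 and 14.6 on the chemostats. It did not lose signal on the same 3 culture 2 arrays, with 19.9, 76.1 and 52.2, against 14.3, 19.1 and 48.9 in culture 1. For PRE3, which has 3 probe sets, the second gave 99.0 on the culture 2 array of day 16, against 273 in culture 1, where the brightest gave 1090.0 and 906. The second gave 405.9, 581.2 and 410.5 on the chemostats and 259.3 in culture 1 of day 20. The second and the third PRE3 probe sets lay below every chemostat array on all arrays of days 16 and 20, while the brightest overlapped the chemostats. The values used for RPT5 and PRE3 hold for the brightest probe set alone. Where in its gene each probe set lies is not known here, and the part of RNA quality in these values was not tested.

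**Figure D5:**
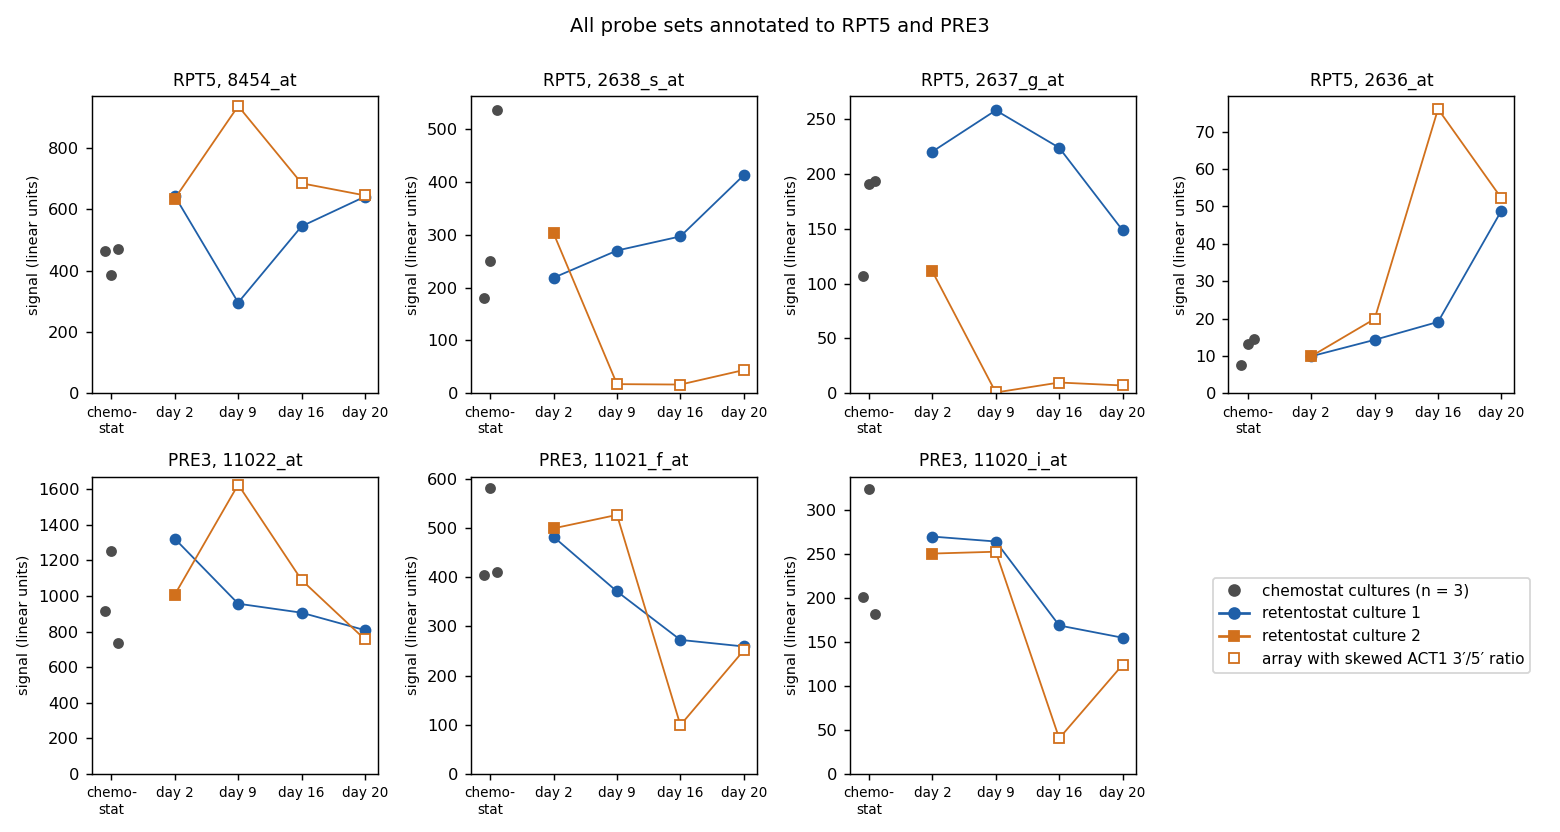
Signal (linear units, axes from 0) of the 4 probe sets of RPT5 and the 3 of PRE3 on every array, chemostats first and then days 2 to 20. The open squares, the culture 2 arrays with the skewed ACT1 ratio, fall near 0 for the second and the third RPT5 panel and not for the first, the brightest set.

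Around the 33 genes, 4 further lists of the pathway with 44 genes were read. Over all genes tested, 11.4%, 16.6% and 10.5% rose on days 9, 16 and 20, and the median was 0.11, 0.25, 0.35 and 0.36 on days 2, 9, 16 and 20. Among 10 assembly chaperones, 1 rose on day 9 (all genes 11.4%), 2 on day 16 (16.6%) and none on day 20 (10.5%). NAS2 (YIL007C), which helps to assemble the base, had 70.2, 66.8 and 55.8 in the chemostats, then 127 and 89.9 at day 2, 221 and 149.8 at day 9, 142 and 92.1 at day 16 and 110.2 and 104 at day 20, above the chemostats on all 8 retentostat arrays and highest on day 9 (1.51 ± 0.29, adjusted p = 0.0101, and 0.0288 without the 3 arrays with the skewed ACT1 ratio). The base chaperones NAS6 (0.77, adjusted p = 0.0298, and 0.0621 without the 3 arrays) and HSM3 (0.93, adjusted p = 0.0464, and 0.0843) rose on day 16; HSM3 was named after its value was seen. The list's median was 0.06, 0.28, 0.48 and 0.41 on days 2, 9, 16 and 20. POC4, a chaperone of the core particle, had −0.86 on day 9 (adjusted p = 0.0578), and TMA17, a base chaperone, −0.58 on day 20 (adjusted p = 0.106).

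Of 9 other parts and activators, 1 rose on day 9 (all genes 11.4%) and 3 on day 16 (16.6%), and none on day 20 (10.5%). SEM1 (YDR363W-A), the smallest lid subunit, had 590.4 and 802 on day 9, against 276, 365 and 325 in the chemostats, and rose by 1.10 ± 0.29 on the log2 scale (adjusted p = 0.0315, and 0.0673 without the 3 arrays). On day 16 SEM1 (0.94, adjusted p = 0.0465), STS1 (1.24, adjusted p = 0.0406), which brings proteasomes into the nucleus, and SPG5 (1.27, adjusted p = 0.0473), a regulator of the proteasome in stationary phase, rose, and none of the 3 did so without those arrays (adjusted p = 0.145, 0.237 and 0.0559). The median was 0.13, 0.40, 0.60 and 0.41.

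Of 17 genes of ubiquitin and of substrate delivery, 3 rose on day 9 (all genes 11.4%), 3 on day 16 (16.6%) and 1 on day 20 (10.5%). UBC5 (YDR059C), a ubiquitin-conjugating enzyme, had 249, 242 and 221 in the chemostats, then 357 and 301.5 at day 2, 647 and 525 at day 9, 574 and 451 at day 16 and 405 and 431 at day 20. Both arrays of every retentostat day lay above the chemostats, and UBC5 rose on days 9, 16 and 20 (1.30, 1.10 and 0.82, adjusted p = 0.00683, 0.0099 and 0.0400; without the 3 arrays 0.0242, 0.0265 and 0.0695). RAD23 (YEL037C), which carries ubiquitylated proteins to the proteasome, had 354, 347 and 329 in the chemostats, then 703.5 and 579.8 at day 2, 878 and 619 at day 9, 714 and 549 at day 16 and 725 and 524 at day 20. It was above the chemostats throughout and rose on days 9 and 16 (1.10 and 0.87, adjusted p = 0.0214 and 0.0412; without the 3 arrays 0.0251 and 0.0340). SHP1, a cofactor of Cdc48, rose on the same days (1.03 and 1.04, adjusted p = 0.0474 and 0.0388), but not without the 3 arrays (adjusted p = 0.158 and 0.116). RPS31, which encodes ubiquitin fused to a ribosomal protein, had −0.97 on day 2 (adjusted p = 0.347) and −0.78 on day 9 (adjusted p = 0.0865). The median was 0.42, 0.50, 0.40 and 0.41.

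Of 8 genes listed for the control of RPN4, 3 rose on day 9 (all genes 11.4%), 1 on day 16 (16.6%) and 1 on day 20 (10.5%). PDR1 (YGL013C), a drug-resistance activator that binds the RPN4 promoter, had 757, 353 and 645 in the chemostats, then 980.0 and 747 at day 2, 1431 and 1628 at day 9, 1218 and 1132 at day 16 and 927 and 990.1 at day 20. Its day 9 arrays were the highest, and it rose on days 9 and 16 (1.46 and 1.08, adjusted p = 0.0173 and 0.0419), but not without the 3 arrays (adjusted p = 0.123 and 0.176). MUB1 (YMR100W), which works with the ubiquitin ligase Ubr2 in the destruction of Rpn4, had 133, 167 and 119 in the chemostats, then 245 and 249 at day 2, 320.5 and 418 at day 9, 367 and 192 at day 16 and 331 and 286.5 at day 20. All 8 retentostat arrays lay above the chemostats, and MUB1 rose on days 9 and 20 (1.41 and 1.16, adjusted p = 0.0161 and 0.0373; without the 3 arrays 0.0380 and 0.0555). UBR1, the ubiquitin ligase of the N-end rule and a relative of UBR2, rose on day 9 (0.89, adjusted p = 0.0255, and 0.0533 without the 3 arrays). HSF1 (YGL073W), also in the list and named after its value was seen, passed on no day with all arrays (0.52 and 0.41 on days 9 and 16). Its signals were 617 and 287 on day 9 and 552 and 276 on day 16, with culture 1 the higher. Without the 3 arrays, which leaves culture 1, the log2 differences were 1.07 and 0.91. The median of the list was 0.17, 0.70, 0.51 and 0.45.

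With the deposited scaling, 8, 9 and 2 of the 44 genes rose on days 9, 16 and 20 (all genes 11.4%, 16.6% and 10.5%). None fell (all genes 3.68%, 4.32% and 3.01%), and none passed on day 2. Under median scaling 294, 319 and 181 of all 5577 genes rose on days 9, 16 and 20, and 330, 427 and 346 fell. Of the 44, 2, 0 and 0 rose and 2, 1 and 3 fell. Under quantile normalization 328, 383 and 199 of all genes rose and 247, 313 and 223 fell. Of the 44, 3, 0 and 0 then rose and 1, 0 and 3 fell. Those that fell under median scaling were POC4 on days 9 and 20, RPS31 on days 9 and 16, and TMA17 and UBR2 on day 20; UBR2 is named after its value was seen. Under quantile normalization they were POC4 on days 9 and 20 and TMA17 and UBR2 on day 20. In the deposited scaling, the calls of NAS2 and UBC5 on day 9 and of UBC5 on day 16 held whichever 1 array was left out (adjusted p of at most 0.047, 0.0342 and 0.0426). That of PDR1 on day 9 was lost without culture 2 of day 9 (0.0773), and each of the others was lost without at least 1 of the chemostat arrays, with adjusted p of up to 0.261.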

How the data were processed

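Per the labels' protocols, total RNA was extracted by hot phenol, mRNA was isolated and biotin-labelled cRNA was hybridised to 1-colour Affymetrix arrays; per the submitters' processing notes, signals were made with GCOS 1.2. The deposited values are linear probe-set intensity values, 9335 on each of 11 arrays, and the sources used here give no background method. Probe sets naming 1 gene (6504) were kept. Those naming several (328), those naming no gene and 60 controls were left out. The brightest probe set stood for each of 5656 genes; 79 genes at or under a signal of 12 on every array were left out. Values were floored at 12, log2 was taken with no further scaling, and 1 limma model (limma 3.58.1, R 4.3.3) with 5 groups was fitted to 5577 genes, with contrasts, an F test and Benjamini-Hochberg adjustment over all genes. Of each array's 9335 probe sets 15.8% to 22.9% lay at or under the floor. The number of arrays limits the precision, and repeated days of 1 culture were treated as independent. Retentostat arrays with the same number share a culture per the labels (deviations correlated at 0.227 to 0.690), while the chemostats are other cultures. The fit was tested on simulated data. Members given in the text on every array were most of those chosen by role and F test, plus most of those called. Some others (such as PRE4, RPN9 and RPN13) were picked after their values were seen. PUP2, PRE9 and RPT1, chosen by F test, and RPN6, which was called, are given there for some days only. Pathway genes were named from those of lowest F p in each list. Of these, ECM29 and PDR3, neither of which passed with all arrays in the deposited scaling, were left out. HSM3, UBR2 and HSF1 lay outside them and were named after their values were seen. The members and lists were chosen with earlier results of these data known. Gene names come from the platform annotation, updated through RefSeq; TMA17 is also known as ADC17. RPL40A and RPL40B had only shared probe sets and gave no value.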

Additional observations from a re-analysis of the deposited data

How the results depend on the processing

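The number of members that rose, 10, 4 and 3 on days 9, 16 and 20 and 2 in the F test, was 2, 1, 1 and 1 under median scaling and 7, 3, 1 and 1 under quantile normalization. It was 3, 3, 2 and 1 with the replicate block, 11, 4, 4 and 4 with culture as a random block, 6, 4 (1 of them lower), 2 and 1 without the 3 arrays with the skewed ACT1 ratio, and 14, 4, 4 and 3 with that ratio as a covariate. A signal floor of 32 gave 12, 6, 3 and 3, and fitting only the groups compared gave 7, 2 and 7. Leaving out 1 array at a time gave 2 to 12 on day 9, 2 to 7 on day 16, 0 to 4 on day 20 and 0 to 6 in the F test. The comparisons of day 2 with the chemostats and of day 20 with days 2 and 9 gave 0 under every alternative run. The replicate block is a pairing in the comparisons between retentostat days alone, where it changed no call; number 3 exists only in the chemostats, so with them the block takes up that array. The subunit median changed sign under median scaling on day 16 (−0.00569), on day 20 (−0.15) and for day 20 against day 2 (−0.26), and with the ACT1 covariate for day 20 against day 2 (−0.00443). The cause was not tested. Over all genes, median scaling turned the calls of day 9 to 294 higher and 330 lower, against 637 and 205 as deposited, those of day 16 to 319 and 427, against 926 and 241, and those of day 20 to 181 and 346, against 585 and 168; quantile normalization gave 328 and 247, 383 and 313, and 199 and 223. Day 9 of RPN4 passed under all 21 alternatives, as did day 16; day 9 passed under 19 for RPN12, 16 for RPN10 and RPT3, 14 for SCL1 and RPT6, 13 for RPN3, 11 for RPN11, 9 for RPN5 and 8 for RPN6. Groups of 2 and 3 arrays limit every value here, and no member came near the signal floor (lowest signal 226, for RPT4).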
